A study of Caenorhabditis elegans with 4 samples.

Results

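The LIN-11 peaks on chromosome IV of Caenorhabditis elegans were the 328 regions that a combined ChIP-seq peak list places on that chromosome, of 2381 peaks in all. They were chosen by position alone, with no use of the peaks' width or significance. The list describes OP62 hermaphrodites at the second larval stage (L2), whose tagged LIN-11 was pulled down through its EGFP with a polyclonal goat antibody. There were 2 ChIP libraries and 2 input libraries, the input being the same kind of chromatin without recovery. All worms carried unc-119(ed3) III and the transgene wgIs62, made by bombardment, which joins unc-119(+) as a rescue marker with lin-11::TY1::EGFP::3xFLAG, and per the labels the fusion protein followed the known expression pattern of lin-11. Whole worms were used, so a peak does not say in which cells the protein was bound, and no untagged strain was analysed here.

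LIN-11 is a transcription factor with LIM domains, which bind partner proteins, and a homeodomain, which binds DNA. It is best known for the division pattern of vulval precursor cells and for the differentiation of several classes of neurons. At L2 the vulval precursors have not yet divided. Chromosome IV is an autosome with no single centromere, and like the other worm autosomes it has a centre rich in conserved genes between arms richer in repeats. It is also known as the home of most piRNA genes, which make small RNAs of the germ line.

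Each peak had a start, an end and 1 q-value from the authors' peak caller, which compared ChIP with input tags. No value belonged to a single library, so the spread between replicates could not be measured and the depth of each library is unknown. Intervals and exact tests below therefore cover counting of peaks within this list. They treat peaks as independent, which close neighbours are not. They do not allow for variation beyond counting, along a chromosome or between chromosomes. All tests were chosen with earlier results of these data known, so their p-values describe the list and are no independent support. Coordinates are those of WormBase WS180, 1-based. Neither an annotation nor a sequence of that build was used here, so peaks are named by position, without genes, exons or bases. The end of the last peak was taken as the extent of a chromosome, which was 17.3 Mb for IV.

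Chromosome IV was a sparsely bound chromosome. It held 19.0 peaks per Mb (exact Poisson 95% interval 17.0 to 21.1), against 24.9 per Mb (23.8 to 26.0) on the other 5 chromosomes together. The ratio was 0.762 (95% interval 0.676 to 0.857, two-sided exact binomial p = 2.75e-06). Without chromosome I, the densest, the ratio was 0.867 (0.767 to 0.978, exact p = 0.0194). Chromosomes V and X, the most similar in density, had 16.6 and 20.7 peaks per Mb. Peaks covered 1.06% of IV and 1.31% of the other chromosomes.

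With limits of 1e-05 and 1000 bp, the deficit passed its test among peaks with higher q-values and among narrower peaks. A q-value below 1e-05 was given to 113 of the 328 peaks, or 34.5% (exact binomial 95% interval 29.3 to 39.9%), against 625 of 2053, or 30.4% (28.5 to 32.5%), on the other chromosomes and 31.0% of the whole list. Per Mb, the 215 peaks with a q-value of 1e-05 or more were 0.718 times as frequent on IV as elsewhere (0.620 to 0.830, exact binomial p adjusted over 4 classes = 6.08e-06). The peaks below 1e-05 had a ratio of 0.863 (0.700 to 1.06), which did not pass the exact test (adjusted p = 0.211). Peaks under 1000 bp had a ratio of 0.745 (0.656 to 0.844, exact adjusted p = 6.08e-06). The 39 broader peaks had a ratio of 0.917 (0.633 to 1.30) and did not pass the exact test (adjusted p = 0.672). The intervals of the classes overlap, and differences between the classes were not tested. The result for low q-values depended on the limit: with 0.001 in place of 1e-05 the ratio of the lower class was 0.741 and passed (exact adjusted p = 0.000173).

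**Figure D1:**
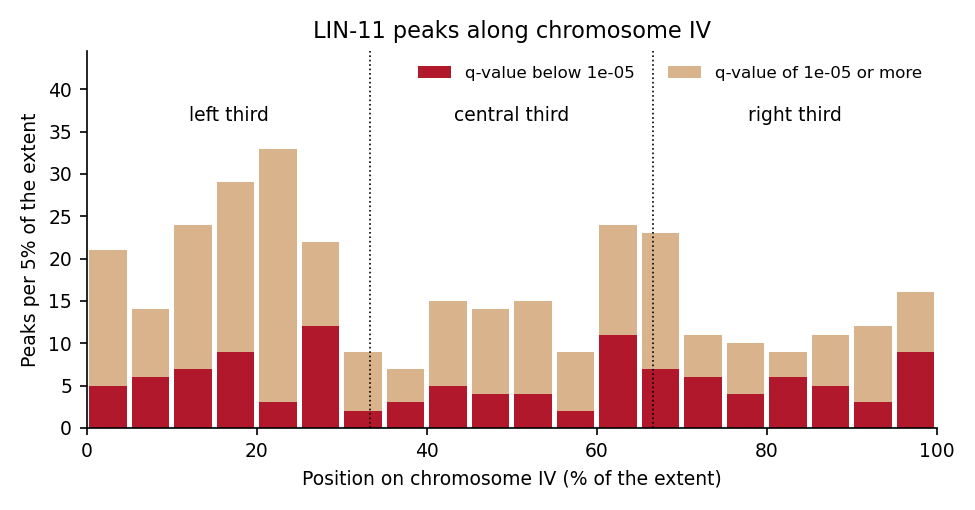
Number of peaks in 20 equal bins along chromosome IV, each 5% of the extent, stacked by the authors' q-value; dotted lines divide the chromosome into 3 equal segments. The fullest bin, from 20 to 25% of the extent, holds 33 peaks, of which 3 have a q-value below 1e-05, and the emptiest, from 35 to 40%, holds 7.

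Peaks on IV were concentrated towards its left end. In 3 segments of 5.76 Mb each, the left held 150 peaks, the centre 91 and the right 87. The left to right ratio was 1.72 (95% interval 1.32 to 2.27, two-sided exact binomial p = 5.13e-05). The imbalance was known from earlier results of these data when the test was chosen. The p-value therefore describes the list and is no independent support. In the 1190 lowest q-values of the list the left to right ratio was 1.31 and no longer passed (68 and 52 peaks, exact p = 0.171). The median peak lay at 41.4% of the extent. On the other autosomes and X it lay between 47.4% (chromosome I) and 64.0% (chromosome II). Chromosome II leaned the other way, with 93 peaks in its left segment and 185 in its right.

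Set against the other autosomes together, IV was short of peaks in its centre and right, while its left segment did not differ detectably. The left segment had 26.0 peaks per Mb, against 23.9 in the left segments of the other 4 autosomes, a ratio of 1.09 (0.903 to 1.31) that did not pass the exact binomial test (p adjusted over 3 segments = 0.342). The central segment had 15.8 per Mb, against 26.0 on the other autosomes, a ratio of 0.607 (0.481 to 0.759, exact adjusted p = 5.65e-06). The right segment had 15.1 per Mb, against 28.2, a ratio of 0.535 (0.422 to 0.671, exact adjusted p = 1.58e-08). The right segments of I, II and III had 36.3, 36.3 and 29.6 per Mb. These p-values cover counting and not that spread between chromosomes. The segments hold the same positions as the known imbalance, so their tests are no independent support either. Chromosome V, the autosome closest to IV in density, had 15.5, 18.7 and 15.5 peaks per Mb in its left, central and right segments. These stand beside 26.0, 15.8 and 15.1 on IV, so the right segments of both were sparse; IV and V were not tested against each other. Chromosome I weighs on the left comparison: without it the left ratio was 1.40, past the threshold (exact adjusted p = 0.00136).

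**Figure D2:**
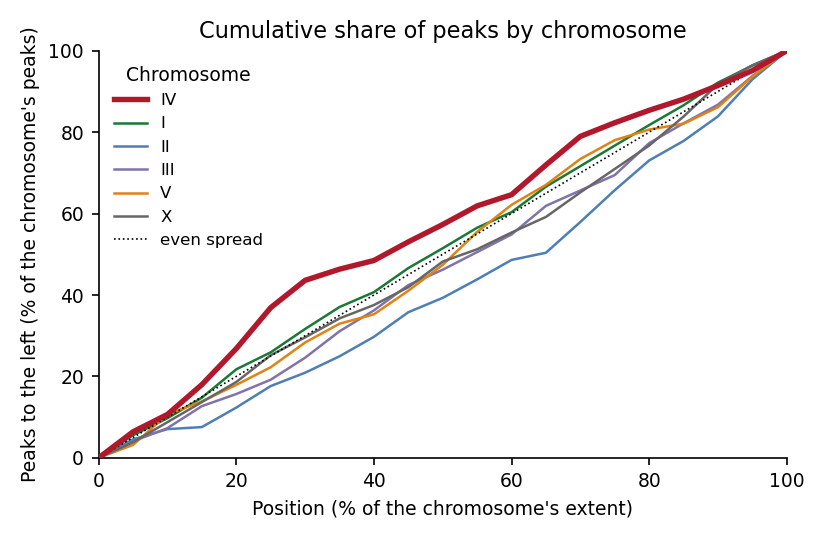
Cumulative share of each chromosome's peaks (vertical, %) against position as % of the extent (horizontal), in steps of 5%; the dotted line is an even spread. Chromosome IV (thick line) runs above the even spread over most of its length, with its median peak at 41.4% of the extent, and chromosome II runs below it, with its median at 64.0%.

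Density on IV dropped after its first 5 Mb. The 5 leftmost bins of 1 Mb held 23, 22, 30, 34 and 32 peaks. The next 2 bins held 11 and 8, the lowest being the bin from 6 to 7 Mb. In the full bins further right, counts were between 10 and 19 except from 10 to 12 Mb, where 2 bins held 23 and 28. The fullest bin, with 34 peaks, ran from 3 to 4 Mb, and 5 of its 34 peaks had a q-value below 1e-05. The first 5 Mb held 141 peaks, or 43.0% of those on IV, at 28.2 per Mb (23.7 to 33.3). The remaining 12.3 Mb held 187 peaks at 15.2 per Mb (13.1 to 17.6). That boundary was placed after the bins were seen, so it has no test. Bins of 1 Mb varied more on IV than counting alone gives, with a variance 3.64 times the mean over 17 full bins. The same quotient was 3.94 on II, 2.69 on V and 1.32 to 1.66 on I, III and X. The exact tests and intervals do not allow for this extra variation.

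With the peaks of IV divided at a q-value of 1e-05, the left to right imbalance passed its test in the class with higher q-values. Among peaks of IV with a q-value of 1e-05 or more, 107 lay in the left segment and 47 in the right, a ratio of 2.28 (1.60 to 3.28, exact binomial p adjusted over both classes = 2.97e-06). Among those below 1e-05, 43 lay in the left segment and 40 in the right, a ratio of 1.08 (0.682 to 1.70), which did not pass the exact test (adjusted p = 0.826). The ratio of these ratios was 2.12 (1.18 to 3.81, Fisher's exact p = 0.0107), a comparison chosen after the counts were seen. It rested on the limit used: with a limit of 0.001 it was 1.67 (Fisher's exact p = 0.0773), and with 1e-10 it was 0.998 (Fisher's exact p = 1), with 19 peaks on the left and 11 on the right below that limit. Below 1e-15 there were 8 and 3. The share of peaks below 1e-05 was 28.7% in the left segment (exact 95% interval 21.6 to 36.6%), 33.0% in the centre (23.5 to 43.6%) and 46.0% in the right (35.2 to 57.0%). In the other autosomes it was 30.8%, 32.6% and 30.7%.

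**Figure D3:**
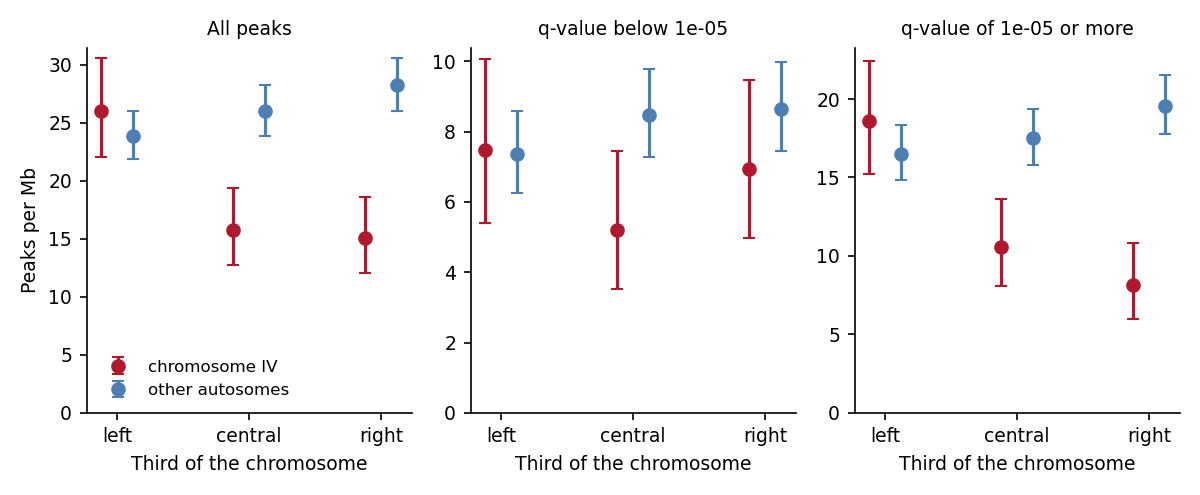
Peaks per Mb in the left, central and right segments of chromosome IV and of the other 4 autosomes together, for all peaks and for the classes of q-value; bars are exact Poisson 95% intervals, and the vertical scales differ. Peaks of 1e-05 or more have 18.6 per Mb in the left segment of IV and 8.16 in the right, and peaks below 1e-05 have 7.46 and 6.94.

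Peak widths on IV were close to those elsewhere. The median was 421.5 bp on IV, with quartiles of 292.75 and 668.25 bp, against 399 bp, with quartiles of 282 and 648 bp, on the other chromosomes. At least 1000 bp were spanned by 39 of the 328 peaks, or 11.9% (exact 95% interval 8.59 to 15.9%), against 9.89% (8.63 to 11.3%) on the other chromosomes and 10.2% of the whole list. Under 50 bp there were 11 peaks, or 3.35% (1.69 to 5.92%), against 4.09% (3.28 to 5.04%). None of those 11 had a q-value below 1e-05, and neither did any of the 84 such peaks on the other chromosomes. On IV the narrowest spanned 1 bp, at 9613498.

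Within IV, peaks were widest in the right segment, where they were fewest. The median width was 381 bp in the left segment, 425 bp in the centre and 511 bp in the right. On the other autosomes it was 381, 414 and 373 bp. Peaks of 1000 bp or more made up 11 of 150 in the left segment of IV, 13 of 91 in the centre and 15 of 87 in the right, or 7.33% (3.72 to 12.7%), 14.3% (7.83 to 23.2%) and 17.2% (9.98 to 26.8%). Those exact intervals overlap, and the trend was not tested. Of the 8 peaks of at least 2000 bp, 2 were in the left segment, 1 in the centre and 5 in the right. Width and significance were related on IV as in the rest of the list, with a Spearman rho of width and minus log10 of the q-value of 0.493 over the 328 peaks and 0.493 over the other 2053. Both come from the same tags of a peak, so this is a description of the list.

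**Figure D4:**
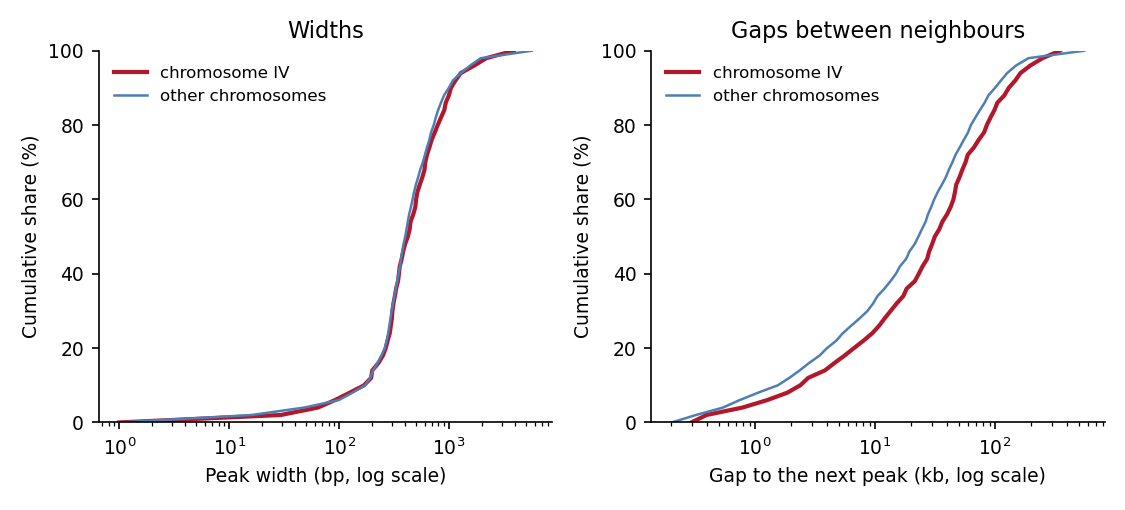
Cumulative share of peaks by width (left) and of gaps between neighbouring peaks by length (right) on chromosome IV and on the other chromosomes, with logarithmic horizontal axes. The width curves nearly coincide (medians 421.5 and 399 bp), whereas the gap curve of IV lies to the right (medians 31.5 and 23.0 kb).

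The rightmost peak of IV was its broadest and most significant. This last peak, at 17278188 to 17282068, spanned 3881 bp, 9.21 times the median width on IV, and had a q-value of 7.79e-40. It ranked 1 of 328 on IV by both measures, and in the whole list it ranked 7 by q-value and 6 by width. It made up 2.11% of all bases covered on the chromosome and 23.9% of the 16211 bp covered in the last 1 Mb, where there were 20 peaks. Its nearest neighbour lay 28.1 kb to the left, at 17249701 to 17250068, with a width of 368 bp and a q-value of 9.15e-14. The peak before that, at 17179831 to 17180113, was 283 bp wide with a q-value of 0.00106.

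A last peak of that size was found on no other chromosome in the list. Chromosome lengths of the build were not used, so the distance of a last peak from the true end is unknown. The last peaks of I, II, III and X were 889, 69, 288 and 754 bp wide. Their q-values were between 2.61e-05 and 0.00362. The last peak of chromosome V was also broad, with 1996 bp at 20840729 to 20842724. That peak had a q-value of 5.01e-05 and ranked 120 of 346 on V, and 9 there by width. The first peak of IV, at 79007 to 79787, was 781 bp wide with a q-value of 0.00219, and 46.4 kb separated it from the next. These are single regions, and no test was made of them.

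The other broad peaks of IV covered a wide range of q-values. Of the 39 peaks of at least 1000 bp, including the last peak, 25 had a q-value below 1e-05 and 14 a higher one. The share below 1e-05 was 58.1% on IV and 60.6% on the other chromosomes for peaks of at least 1000 but under 2000 bp. For peaks of 2000 bp or more it was 87.5% (7 of 8 peaks) and 73.7% (28 of 38). These shares were not tested against each other. The widest after the last peak, 3140 bp at 16167919 to 16171058, ranked 111 on IV with a q-value of 6.93e-06. It stood alone, 103.5 kb from its left neighbour and 211.1 kb from its right. The peak at 10933802 to 10936433 was 2632 bp wide and had 2.42e-07, and that at 16491168 to 16493581, with 2414 bp, had 9.35e-11. The 2541 bp peak at 14032465 to 14035005, by contrast, had a q-value of 8.28e-32, the second lowest on the chromosome.

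Of the 10 peaks of IV with the lowest q-values, 7 lay in the left segment, which held 45.7% of all peaks of IV, 1 in the centre and 2 in the right. Their median width was 753.5 bp (347 to 3881 bp), and 3 of the 10 reached 1000 bp, so they were wide beside the median of 421.5 bp on IV. The peak at 4390483 to 4390845 was 363 bp wide with a q-value of 1.83e-26. It was followed by 1094147 to 1094943 (797 bp, 6.45e-26) and by 6323625 to 6324051 in the central segment (427 bp, 2.85e-21). Next came 1659086 to 1659432 (347 bp, 6.42e-20), 654403 to 655112 (710 bp, 1.10e-18) and 390347 to 390750 (404 bp, 1.72e-18). The list of 10 ended with 4749393 to 4750457 (1065 bp, 1.15e-17) and 3050202 to 3051056 (855 bp, 1.16e-17). These 10 were among the 82 lowest q-values of the whole list. That is no more than the share of IV in the list, 328 of 2381 peaks.

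**Figure D5:**
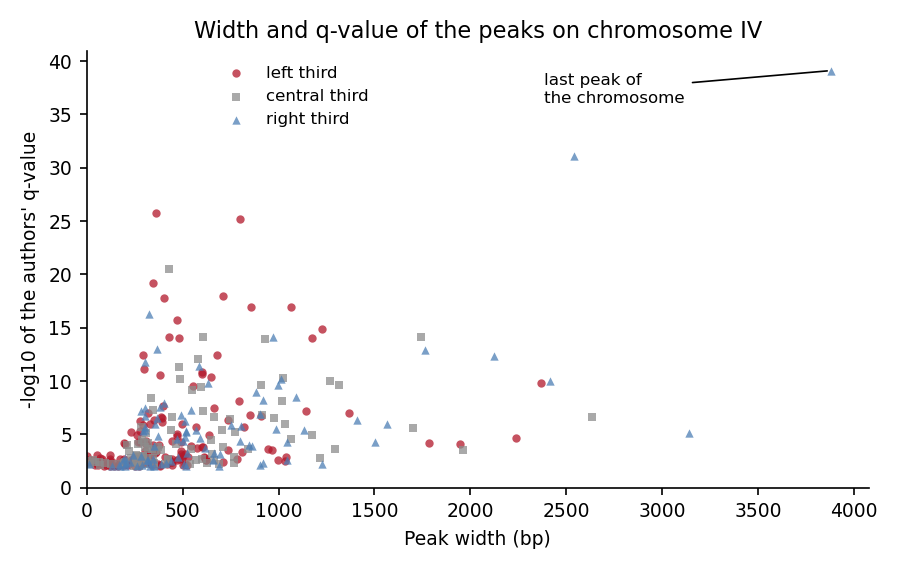
Width in bp (horizontal) and minus log10 of the authors' q-value (vertical) of the 328 peaks on chromosome IV, by segment. The last peak of the chromosome (3881 bp, q-value 7.79e-40) stands apart at the upper right, and the peak of 3140 bp has a q-value of 6.93e-06.

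Neighbouring peaks lay farther apart on IV, about as much as its lower density implies. The median gap was 31.5 kb, with quartiles of 10.5 and 69.5 kb over 327 gaps, against 23.0 kb, with quartiles of 5.85 and 53.1 kb over 2048 gaps, on the other chromosomes. Divided by the mean spacing of its own chromosome, the median distance between neighbouring midpoints was 0.606 on IV and 0.598 elsewhere. Distances under 0.1 of the mean spacing made up 15.9% and 17.1%, and those over 3 times it 6.73% and 6.54%. Gaps under 2 kb numbered 30 on IV, or 9.17% (exact 95% interval 6.28 to 12.8%), against 12.3% (10.9 to 13.8%). Among the other chromosomes this share ran from 6.87% on X to 17.2% on I, so IV lay within their range. No test was made on gaps, which depend on density.

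Linking neighbours with gaps under 2 kb gave 24 pairs and 3 groups of 3, which together held 57 peaks, or 17.4%, against 21.9% on the other chromosomes. No group on IV had more than 3 members, of 298 groups and single peaks there. Elsewhere 7 of 1801 did, the largest with 7 peaks on II. The groups of 3 lay at 1823972 to 1827524, 2602010 to 2605166 and 10503579 to 10507919, with lowest q-values of 3.11e-10, 2.76e-11 and 1.38e-07. The closest pair was separated by 295 bp, at 16388686 to 16388980, between peaks of 657 and 664 bp. The next 4 gaps, of 302, 310, 316 and 325 bp, were all in the left segment. They began at 3637203, 3385005, 4470636 and 1805422. The third of these followed a 2368 bp peak, and the others joined peaks of 65 to 966 bp.

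Long stretches without peaks took up much of IV. Its 50 gaps of 100 kb or more were 15.3% of its gaps (exact 95% interval 11.6 to 19.7%), against 10.01% (8.74 to 11.4%) elsewhere, and summed to 8.42 Mb. That was 48.7% of the extent, against 39.6% on the other chromosomes, with 58.3% on V and 19.9% on I as extremes. A fixed limit of 100 kb counts more gaps where peaks are sparser. Relative to the mean spacing, distances over 3 times it were 6.73% on IV and 6.54% elsewhere. Counting gaps between peaks of the same segment, 10 of 149 in the left reached 100 kb, 19 of 90 in the centre and 20 of 86 in the right. The longest ran from 13430501 to 13777539, or 347.0 kb, and was shorter than the longest on II (552.9 kb) and V (421.6 kb). It was followed by 9613499 to 9932016 (318.5 kb), 4810709 to 5100228 (289.5 kb), 14098606 to 14371504 (272.9 kb) and 5948105 to 6206414 (258.3 kb). The gap that starts at 4810709 lies where the dense left stretch ends. With unknown depth, a gap is a stretch where no peak was detected.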

How the data were processed

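The values were those of 1 peak list combining 2 ChIP and 2 input libraries. Per the file headers, peaks were called with PeakSeq on WormBase WS180; its version, the aligner and any filter are not given in the sources used here. The authors deposited 1 q-value per peak, all below 0.01. The general protocol in the labels also mentions embryos; the stage label L2 was used. The list holds no tag counts, so depth is unknown.

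Members were the peaks on chromosome IV. Members, limits and tests were chosen with earlier results of these data known. Extents ended at the last peak. Counts were compared with shares of extent, or left with right, by two-sided exact binomial tests (scipy 1.17.1, Python 3.11.15) with Clopper-Pearson intervals, and Benjamini-Hochberg adjustment within families of classes or segments, at a threshold of 0.05. Exact Poisson intervals accompany densities. Fisher's exact test compared the left to right ratios of the q-value classes. Tests were checked on simulated lists with planted effects. Those lists held independent peaks, so the check does not cover close neighbours or extra variation along a chromosome. The named peaks were the 10 lowest q-values, the 5 widest, the first and last, and those at the 5 longest and 5 shortest gaps, plus the fullest 1 Mb bin and the last peak of each other chromosome; others, such as the narrowest peak, those near the right end, the groups of 3 and those named for their tag ratio, were chosen after their values were seen. Alternatives changed the peaks, chromosomes, segments or limits used. The reference gene table is of another build, WBcel235, and was not used.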

Additional observations from a re-analysis of the deposited data

How the results depend on the processing

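The 12 tested results had 83 values under alternatives, of which 72 had the same direction and the same outcome of the test. Some of the 72 repeat the main counts, because the peaks left out were never in the class. These were broad peaks and low q-values without peaks under 50 bp, and peaks under 1000 bp without the widest 10%. They are no sign of stability. The lower density of IV passed the exact binomial test under each of its alternatives, with ratios from 0.729 (without X) to 0.867 (without chromosome I). So did the lower density of its central (0.589 to 0.700) and right (0.492 to 0.617) segments. The left to right ratio ran from 1.31 to 1.93 and no longer passed when only the 1190 lowest q-values were used (1.31). Without chromosome I, the left segment entered its test (1.40), and the ratio of peaks with low q-values turned (1.04). That ratio entered its test without X (0.801) and with a limit of 0.001 (0.741). The ratio of broad peaks turned with a limit of 2000 bp (1.00, 8 peaks on IV), and the left to right ratio of low q-values with 2 segments in place of 3 (0.982). The ratio of ratios between the q-value classes, whose alternatives were all chosen after seeing the data, left its test without the widest 10% of peaks (1.86), with 5 segments (2.08) and with a limit of 0.001 (1.67), and turned with 1e-10 (0.998). The cause was not tested in these cases. No paired analysis was possible because the list combines the replicates, which also means that no replicate could be left out. Unknown depth limits any statement on missing peaks.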

Other observations

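The q-values of the list carry more than a rank. Multiplied by the line number and divided by 20869, all 2381 equal, within a relative tolerance of 1e-11, an upper binomial tail, at equal chances, of 2 whole numbers. With 20868 or 20870 in place of 20869, 0 match. Read as ChIP and input tags, these numbers are an inference from the authors' q-values and not values of the list, and the input number would be a scaled one. Each of the 328 peaks on chromosome IV has 1 such pair.

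On that reading the peaks of IV were enriched about as much as the rest. The median peak of IV had 105 ChIP tags (15 to 988) and 49 input tags (1 to 515), and the other 2050 peaks with 1 pair had medians of 100 and 45. The ratio of ChIP to input had a median of 2.30 on IV, with quartiles of 1.85 and 3.00, and 2.30 on the other chromosomes, with quartiles of 1.89 and 3.00. A ratio under 2 was found in 108 peaks of IV (32.9%), against 32.0% of the others. Single chromosomes differed, with medians from 2.11 on X to 2.48 on I and shares under 2 from 42.7% to 19.2%. All peaks passed the same q-value limit, which restricts the ratio. By segment of IV the median ratio was 2.43 in the left, 2.18 in the centre and 2.27 in the right, against 2.50, 2.19 and 2.39 on the other autosomes.

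The last peak of IV had 912 ChIP and 416 input tags, a ratio of 2.19 that ranked 179 of 328 on the chromosome. Among the 8 peaks of IV of at least 2000 bp it was the highest ratio, the others running from 1.46 to 1.92. It had 107 input tags per kb, within the range of 68.8 to 203 of the others of at least 2000 bp. The median was 101 among peaks of IV at least 50 bp wide, most of them far narrower. The neighbour at 17249701 had 211 and 77 tags, a ratio of 2.74. The peak at 14032465 had 988 and 515 tags, a ratio of 1.92 with 203 input tags per kb. The wide peaks at 16167919, 10933802 and 16491168 had ratios of 1.50, 1.46 and 1.57. The last peaks of V and I had ratios of 1.50 and 1.95, and that of II, 69 bp wide, had 23 and 4 tags.

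Leaving out peaks under 50 bp or with fewer than 10 input tags left 286 on IV, and the first 3 lay within 0.34 Mb of each other. These were 4727907 to 4728198 (102 and 19 tags, ratio 5.37), 4390483 to 4390845 (210 and 40, ratio 5.25) and 4720575 to 4720873 (96 and 19, ratio 5.05). In the same class of the whole list, 2095 peaks, they ranked 6, 7 and 9. Of the 10 highest ratios on IV, 5 were in the left segment, near its share of all peaks of IV (45.7%). These are single peaks, singled out after their values were seen, with no test.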
